A study of Homo sapiens with 4 samples.

Results

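The genes described here are the zinc finger genes of human chromosome 19 that carry a ZNF symbol. They were chosen as every non-control probe on the arrays with a gene name starting with ZNF and a position on chromosome 19. That rule uses no measured value, but it was set with earlier results of these data known. The rule gave 388 probes of 236 genes, out of 41000 probes of 29123 genes on the array. By RefSeq, 223 of the 236 are protein-coding, 8 are pseudogenes and 5 are long non-coding RNAs antisense to a zinc finger gene.

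Most genes of this kind encode proteins with a row of C2H2 zinc fingers, small folds held by a zinc ion that read DNA a few bases at a time. Many also carry a KRAB box, which recruits TRIM28 and through it the histone methyltransferase SETDB1, HP1 proteins and histone deacetylases, so that the bound DNA is packed into repressed chromatin. The family spread by repeated tandem duplication, which left it in dense clusters along chromosome 19. Many of its members bind and silence transposable elements.

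A2780s is an established human epithelial ovarian cancer (EOC) cell line. The study set 2 clones of GALNT3 KO and 2 of GALNT3/T6 KO against Ctrl cells, which were mock-transfected A2780s. GALNT3 and GALNT6 encode GalNAc transferases, enzymes that start O-glycosylation. GALNT3 KO was made with CRISPR/Cas9 and a repair plasmid. For GALNT3/T6 KO, clones of GALNT3 KO were given a lentiviral shRNA to GALNT6, so that viral transduction cannot be told apart from that group. Each KO sample is a clone and was hybridized on an array of its own against Ctrl RNA. By the labels, Ctrl was in Cy3 and KO in Cy5 on all 4 arrays, which were on 1 slide by an earlier account of the series. There was no dye swap, so a dye effect on a probe cannot be told apart from the KO. Each value is the log2 of KO over Ctrl after loess within each array, and each gene is read by its brightest probe. Genes were called with limma over 27196 genes, where the adjusted p (Benjamini-Hochberg) did not exceed 0.05. The p-values measure the spread between 2 clones a group and leave out the spread of Ctrl itself. The arrays measure bulk RNA, in which fewer cells of a type and less RNA per cell cannot be told apart.

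Of the spots on each array, a share from 86.9% to 93.8% exceeded background clearly in either channel and 0 were saturated. On the GALNT3 KO arrays neither channel of GALNT3 rose well above background, so that its loss cannot be read there. Where the label reads GALNT3/T6 KO both channels were above background. GALNT3 RNA stood there at 4.80 and 5.08 by its 1 probe, above Ctrl although the label names a KO. The study chose its KO clones by Western blot of protein, which the arrays do not measure. GALNT6 stood at -0.47 and -0.38 in GALNT3 KO and at -0.66 and -0.69 in the other group. The arrays of that group are here called GALNT3/T6-labelled, and their directions are KO over Ctrl by the label. For SETDB1 the log2 Ctrl signal was 13.82 and 13.72 on the GALNT3 KO arrays and 13.74 and 13.73 on these. Its KO signal on these was 11.88 and 12.28. For TRIM28 the Ctrl signal was 14.10 and 14.05, then 13.89 and 13.81, and the KO signal on these was 12.06 and 12.37. The assignment of the channels was not tested. Epithelial markers moved with that group too. KRT18, KRT19, KRT8 and CDH1 were called higher there, 4 of the 5 listed, and the log2 of their summed KO signal was 19.85 and 19.74, beside 13.02 and 12.79 for GALNT3 KO. The Ctrl channel was also brighter on those arrays for this list, at 15.43 and 14.95 beside 12.68 and 12.55. Of the 4 leukocyte markers 0 were called higher and 1 was called lower there, all between -0.37 and 0.19. The 4 fibroblast markers had 1 higher and 2 lower, the 2 endothelial markers tested had 1 higher, and the 5 Mullerian markers had 2 higher. The part of these shifts in the zinc finger results was not tested.

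The probes of these genes can lie on the fingers themselves, whose DNA is much alike from gene to gene. Neighbouring fingers are joined by a short conserved linker, and the letters GGNGANAANCC, in which N is any base, cover its codons for glycine, glutamate, lysine and proline. They were found on the strand of the probe in 27 of the 388 probes (6.96%) and in 10 of 404 probes of other ZNF names (2.48%). They were found in 35 of 40208 probes of all other genes (0.0870%). On the opposite strand they were found in 0 of the 388. Among the probes used for the gene values, 11 of 232 carried them. The 4 probes below, all of genes called on the GALNT3/T6-labelled arrays, are shown to make the likeness plain, with the linker letters in capitals. Their hg19 positions are chr19:21132382-21132441, chr19:21607070-21607129, chr19:22847682-22847741 and chr19:53996095-53996154, all on the plus strand.
ZNF85: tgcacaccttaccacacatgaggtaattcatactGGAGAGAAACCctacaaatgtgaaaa
ZNF493: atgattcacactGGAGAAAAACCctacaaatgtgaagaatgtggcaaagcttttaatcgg
ZNF492: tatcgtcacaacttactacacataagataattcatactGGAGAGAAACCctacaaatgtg
ZNF813: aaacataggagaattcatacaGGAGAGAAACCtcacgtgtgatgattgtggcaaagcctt

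ZNF85 and ZNF492 share an unbroken stretch of 33 bases in these probes. Over all 26796 pairs of the probes used, 47 pairs, of 30 genes, shared a stretch of at least 20 bases. The longest was 38 bases, between ZNF429 and ZNF100. Of those 30 genes 14 were called on the GALNT3/T6-labelled arrays, beside 60.8% of the 232 genes and 47.9% of all genes tested. Their values may hold signal of a near copy, and a rise of one of them cannot be separated here from a rise of its neighbour.

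Of the 236 genes, 232 could be tested. ZNF536, ZNF556, ZNF404 and ZNF844 did not pass the filter on dim or flagged spots. Another 8 passed only through the GALNT3/T6-labelled arrays, namely ZNF229, ZNF441, ZNF528, ZNF560, ZNF582, ZNF671, ZNF814 and ZNF829. The Ctrl signal was well above background on all 4 arrays for 224 genes, so most of the family was detected in the mock-transfected cells. Over the 232 genes the clones of a group went together, with r = 0.871 between the GALNT3 KO arrays and 0.951 between the GALNT3/T6-labelled arrays. Over all genes these were 0.835 and 0.917. The correlations run across genes, which are not independent replicates.

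In GALNT3 KO the family moved little. Of the 232 genes 29 were called (12.5%), beside 11.2% of all genes tested, with 14 higher (6.03%, beside 4.79%) and 15 lower (6.47%, beside 6.44%). The median was -0.03 and -0.02 on the 2 arrays, and -0.03 for the group against 0.02 for all genes. Only ZNF649 changed more than 2-fold among the called genes. The split between higher and lower depended on the scaling, since median centring in place of loess gave 4 higher and 21 lower. The calls themselves rest on both arrays: without GALNT3 KO replicate 1 or replicate 2, limma called 0 genes, at a lowest adjusted p of 0.282 and 0.391, with 41 and 29 genes at an unadjusted p under 0.05. Fitted on the GALNT3 KO arrays alone, 94 genes were called. The share over all genes under that fit is not given, so this count is no result about the family.

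ZNF649, a KRAB zinc finger protein described as a transcriptional repressor, fell the most in GALNT3 KO. Its ratios there were -1.80 and -1.85, averaging -1.82 (standard error 0.12, adjusted p = 0.00953 from limma). Its KO channel was well above background on 1 of the 2 arrays, so the size is not exact. The other probe of the gene gave -1.46. ZNF649 was also low on the GALNT3/T6-labelled arrays, at -2.15 and -2.52, and the gap between the groups missed the threshold (difference -0.51, adjusted p = 0.0976 from limma). All 4 clones lay below Ctrl in this gene.

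The other falls called in GALNT3 KO were smaller. ZNF428 stood at -0.93 and -0.86, ZNF793-AS1 at -0.84 and -0.86, and ZNF439 at -0.69 and -0.85, with adjusted p between 0.0169 and 0.0286 from limma. ZNF613 (-0.72), ZNF616 (-0.64), ZNF486 (-0.60), ZNF790 (-0.54), ZNF180 (-0.54) and ZNF114 (-0.49) followed as group means. ZNF480 had a larger mean than these, -1.29, with -1.32 and -1.26 on its arrays, but missed the threshold (standard error 0.27, adjusted p = 0.0508 from limma). The clones of the other group, which share the estimate of spread, were far apart in this gene, at -0.09 and -1.20. It is named after its values were seen.

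The called rises in GALNT3 KO all stayed under 2-fold. The largest were ZNF791 (0.63 and 0.84), ZNF667-AS1 (0.75 and 0.69), ZNF850 (0.86 and 0.56) and ZNF331 (0.74 and 0.64), with adjusted p between 0.0259 and 0.0436 from limma. ZNF331 is a KRAB zinc finger gene often methylated in carcinomas. ZNF549 (0.66), ZNF134 (0.66), ZNF667 (0.54), ZNF85 (0.47), ZNF557 (0.46) and ZNF211 (0.45) followed as group means. The other probe had the opposite sign for ZNF850, at -0.23, and for ZNF557, at -0.35.

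On the GALNT3/T6-labelled arrays the family moved far more, and by the label more of its genes fell than rose. Of the 232 genes 141 were called (60.8%), beside 47.9% of all genes tested. There were 47 higher (20.3%, beside 24.8% of all genes) and 94 lower (40.5%, beside 23.1%). The higher include ZNF229, ZNF528, ZNF671 and ZNF829 and the lower ZNF814, which passed the filter only through these arrays. The median was -0.12 and -0.20 on the 2 arrays and -0.19 for the group, against 0.03 for all genes. By size, 17 called genes rose and 31 fell by at least 1 on the log2 scale, and 7 rose and 7 fell by at least 2. The share of all genes past these sizes was not counted. The SD over all genes was 0.96 and 0.97 on these arrays, beside 0.93 and 0.95 over the 232. Of the called genes, 55 had more than 1 probe that passed the filter, and in 43 of these all probes had the same sign. In the rest the direction depends on the probe. The call depends on a test that shares its spread across genes. A plain t-test, with the spread of each gene alone, gave 36 genes at an unadjusted p of at most 0.05 with a 1.5-fold change. It gave 0 after adjustment, and 59 at an unadjusted p under 0.05 whatever their size.

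**Figure D1:**
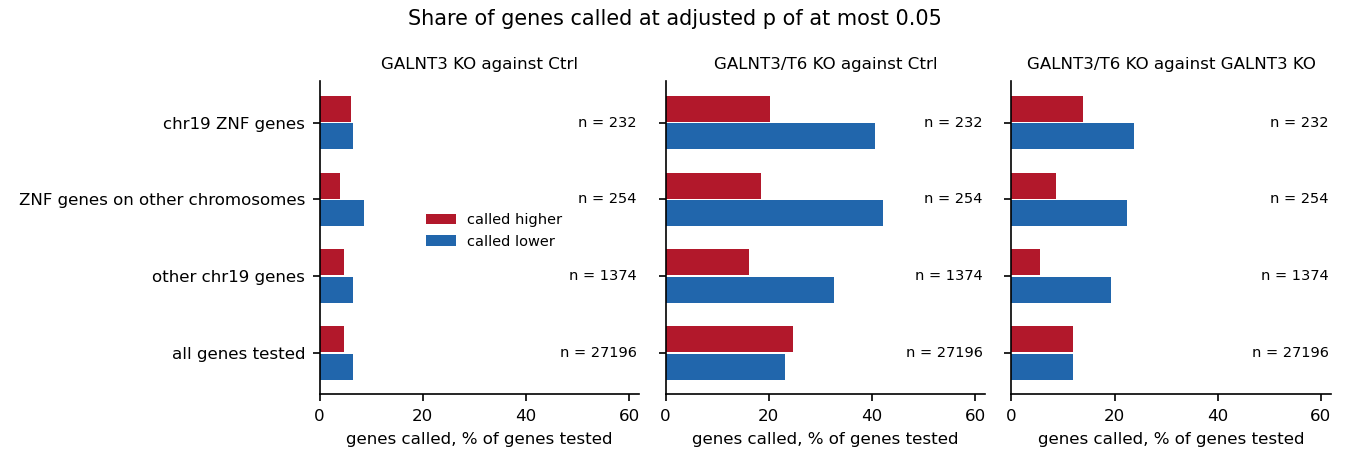
Share of genes called higher (red) and lower (blue), as a percent of the genes tested, in each of the 3 comparisons for chromosome 19 ZNF genes, ZNF genes of other chromosomes, other chromosome 19 genes and all genes tested. On the GALNT3/T6-labelled arrays both sets of ZNF genes and the other chromosome 19 genes have more genes lower than higher, while all genes are close to even.

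ZNF genes of other chromosomes moved in a like way. Of 254 ZNF genes on other chromosomes 154 were called (60.6%), with 47 higher and 107 lower and a median of -0.20. Of 1374 other genes on chromosome 19, 671 were called (48.8%), with 223 higher, 448 lower and a median of -0.10. The difference between these sets was not tested. No array held both KO groups, so they were compared by the difference of their mean ratios to Ctrl. Any difference between their Ctrl samples enters that value too. In this comparison between the groups, 87 of the 232 genes were called (37.5%), beside 23.7% of all genes. There were 32 higher (beside 11.9%) and 55 lower (beside 11.9%) on the GALNT3/T6-labelled arrays, with a median difference of -0.18. With Agilent's own log ratio these were 26 and 78. Without GALNT3 KO replicate 1 the count fell to 9, and without replicate 2 to 14.

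The largest rise was that of ZNF829, a KRAB zinc finger gene. It stood at 3.43 and 4.01 on the GALNT3/T6-labelled arrays, and averaged 3.72 (standard error 0.15, adjusted p = 0.000197 from limma). On the GALNT3 KO arrays it stood at 0.13 and 0.16, where each channel was above background on only 1 array. The dimmer probe of ZNF829 rose much less, to 0.46, so the size belongs to the probe. ZNF671, a gene silenced by promoter methylation in several carcinomas, stood at 3.06 and 3.64, and averaged 3.35 (standard error 0.16, adjusted p = 0.000262 from limma). In GALNT3 KO ZNF671 was at 0.15 and 0.06, again with each channel above background on only 1 array, so these ratios are not exact for either gene. Both genes passed the filter only through the GALNT3/T6-labelled arrays, where they were high, and drop out with the filter on all 4 arrays. Their p-values are to be read with that limit.

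ZNF93, which binds and represses LINE-1 elements, rose as well. Its ratio was 2.67 and 2.94 on the GALNT3/T6-labelled arrays and 0.02 and 0.33 on the GALNT3 KO arrays, and averaged 2.81 in the former (standard error 0.12, adjusted p = 0.000225 from limma). The 4 probes of ZNF93 ran from 1.12 to 3.13, all above 0. ZNF559 and ZNF177 are next to each other and are also transcribed together as a readthrough gene listed by RefSeq. ZNF559 stood at 2.36 and 2.61 and ZNF177 at 2.76 and 2.77, with means of 2.49 and 2.76 (adjusted p = 0.000188 and 0.000143 from limma). Both had smaller ratios in GALNT3 KO, between 0.15 and 0.51, and were not called there.

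ZNF701 (2.34 and 1.98) and ZNF610 (1.75 and 2.36) completed the genes that rose by at least 2 on the log2 scale. ZNF229 stood at 1.64 and 2.17, but its Ctrl channel was not well above background on either array, so the KO signal is given as at least 3.27-fold higher. This gene too passed the filter only through the GALNT3/T6-labelled arrays. ZNF667-AS1 (1.80 and 1.33) and ZNF542P (1.63 and 1.33) are a long non-coding RNA and a transcribed pseudogene. The adjusted p of these 5 genes ran from 0.000342 to 0.00126 by limma. Of the 8 pseudogenes 5 were called higher and 1 lower, with a median of 0.58, whereas the 219 protein-coding genes tested had 41 higher and 91 lower with a median of -0.23.

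**Figure D2:**
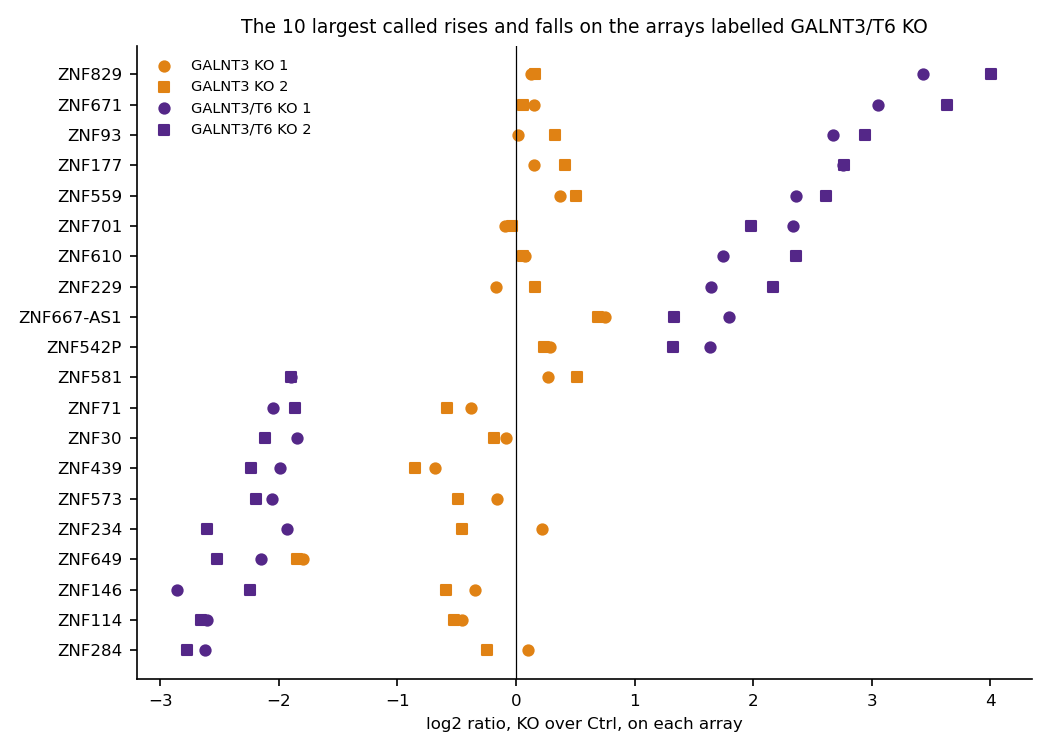
Log2 ratio of KO over Ctrl on each of the 4 arrays for the 10 called genes with the largest rise and the 10 with the largest fall on the GALNT3/T6-labelled arrays (purple), with GALNT3 KO in orange and circles and squares for replicates 1 and 2. ZNF829 is highest at 3.43 and 4.01 and ZNF284 lowest at -2.62 and -2.77, and ZNF649 is far below 0 in both groups.

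The deepest fall was that of ZNF284, at -2.62 and -2.77 and averaged -2.70 (standard error 0.12, adjusted p = 0.000216 from limma). In GALNT3 KO ZNF284 lay at 0.10 and -0.24, near Ctrl. ZNF114 stood at -2.60 and -2.66, and averaged -2.63 (standard error 0.08, adjusted p = 0.000107 from limma), and its KO channel was above background on 1 array. ZNF146, which consists of zinc fingers without a KRAB box, stood at -2.86 and -2.24, and its dimmer probe averaged -1.28. All 3 genes lay lower on both GALNT3/T6-labelled arrays than on either GALNT3 KO array.

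ZNF234 stood at -1.93 and -2.61 and at 0.22 and -0.46 in GALNT3 KO, the widest gap between clones among these genes, and its dimmer probe averaged -0.60. ZNF573 (-2.06 and -2.19), ZNF439 (-1.99 and -2.24), ZNF30 (-1.85 and -2.11), ZNF71 (-2.05 and -1.86) and ZNF581 (-1.90 and -1.90) had close values on both arrays. ZNF69 was above background in Ctrl and in neither KO channel of that group, so its signal is given as at least 1.85-fold lower than Ctrl (ratios -0.97 and -0.99, adjusted p = 0.00119 from limma). ZNF580 and ZNF264 were among the 10 largest falls in the comparison between the groups, with differences of -1.55 and -1.66 (adjusted p = 0.00533 and 0.0133 from limma).

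Several members known from other work were not called. ZNF91, which represses SVA elements in human cells, stood at -0.11, 0.06, -0.20 and -0.05 on the 4 arrays. ZNF382 stood at 0.04, 0.15, -0.02 and 0.01, and ZNF154 at 0.06, -0.04, 0.02 and 0.05. ZNF274, which is known to bind at zinc finger genes and to bring SETDB1 to them, stood at 0.01, 0.02, -0.09 and 0.42. ZNF132 lay between 0.02 and 0.27, ZNF582 between 0.02 and 0.13, and ZNF208 between -0.12 and 0.23. None of these 7 was called against Ctrl in either group, though the other probe of ZNF154 averaged -0.57 on the GALNT3/T6-labelled arrays. ZNF208 (0.42) and ZNF382 (-0.33) were called there with Agilent's own log ratio, and ZNF274 (0.42) without GALNT3/T6 KO replicate 1. ZNF257 was at 0.62 and -0.02 there and was not called, but its other probe averaged 1.02. With the mean of its probes ZNF257 was called (0.66, adjusted p = 0.00275 from limma), as it was without GALNT3/T6 KO replicate 2 (0.62).

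Others of the same list were called. ZNF43 stood at 1.21 and 1.06, ZNF85 at 0.98 and 1.03 and ZNF544 at 1.29 and 1.1 on the GALNT3/T6-labelled arrays (adjusted p from 0.000928 to 0.0018 by limma). ZNF568 (0.50 and 0.53), ZNF471 (0.57 and 0.46) and ZNF331 (0.47 and 0.22) were called too, but all 3 lost the call with Agilent's own log ratio, and ZNF471 and ZNF331 also with median centring or with the mean of all probes. For ZNF471 the lowest of 3 probes gave -0.39. ZNF667 went from 0.56 and 0.51 in GALNT3 KO to -0.88 and -0.73, and was called in opposite directions in the 2 groups.

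Along the chromosome the genes fell into 16 position clusters, separated where neighbouring genes start more than 1000 kb apart in hg19. Of these, 9 held at least 5 members and 225 members together. They are numbered here from the short-arm end and named by their first and last gene. The clusters differed in direction in both groups. In GALNT3 KO, where the genes also spread less (SD 0.35 and 0.39 against 0.93 and 0.95), the medians of the 9 clusters lay between -0.30 and 0.21. Cluster 16 had 5 genes called higher and 0 lower there by limma, and 26 of 39 genes of cluster 15 lay below 0. Clusters were described and not tested, and their positions are given in hg19. Their counts stand beside 24.8% higher and 23.1% lower over all genes tested on the GALNT3/T6-labelled arrays. In GALNT3 KO these shares were 4.79% and 6.44%. With the filter on all 4 arrays, clusters 9, 12 and 16 had 2, 0 and 6 genes called higher on the GALNT3/T6-labelled arrays.

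**Figure D3:**
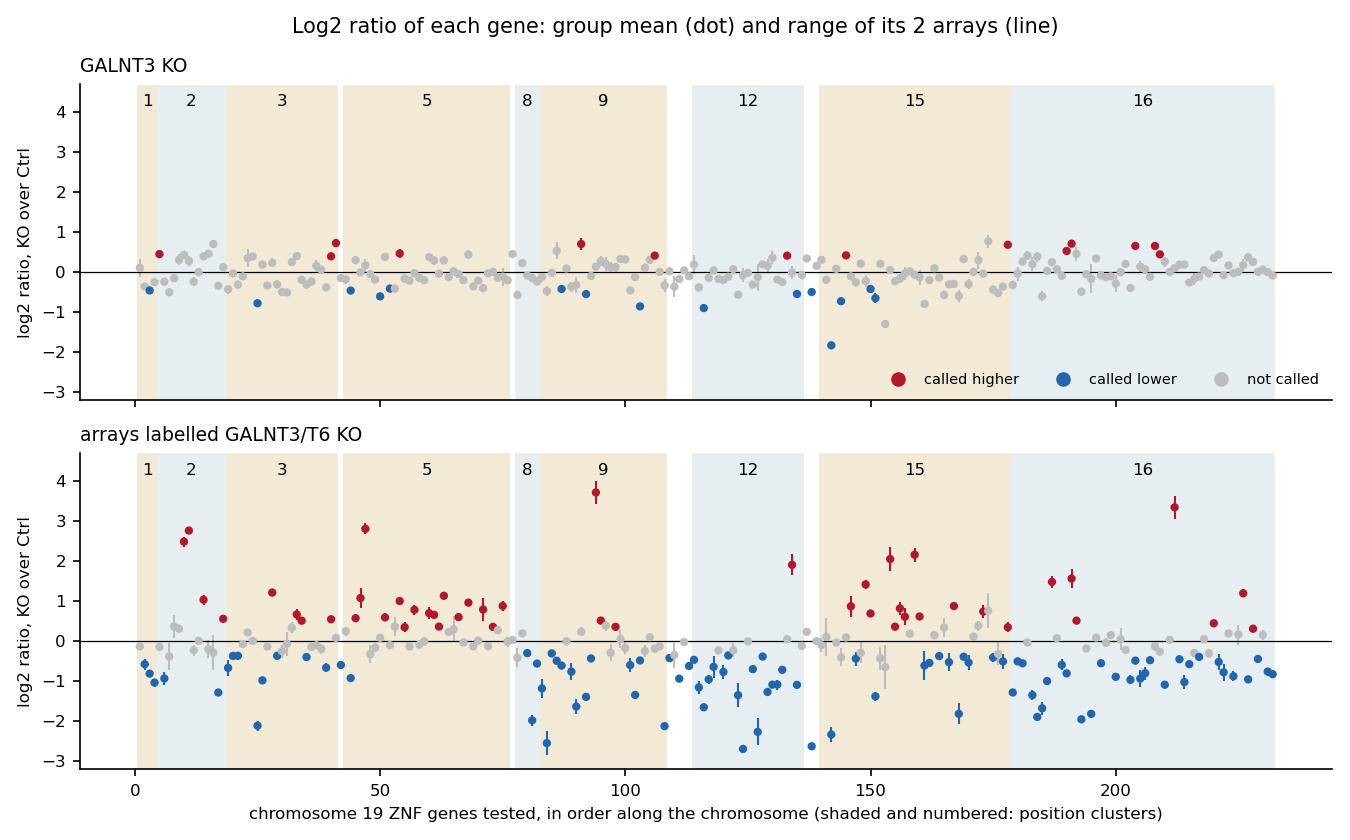
Log2 ratio of KO over Ctrl of the 232 genes tested, in their order along chromosome 19, for GALNT3 KO (top) and the GALNT3/T6-labelled arrays (bottom). Dots are group means, lines span the 2 arrays, red and blue mark genes called higher and lower, and shading marks numbered position clusters. In the lower panel, cluster 5 has 16 genes called higher and 1 lower, and cluster 12 has 1 higher and 17 lower.

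Cluster 5 runs from ZNF101 to ZNF254 at chr19:19790730-24310846, next to the centromere on the short arm, where many genes arose by duplication in primates. Of its 34 genes, 16 were called higher and 1 was called lower on the GALNT3/T6-labelled arrays. Its median was 0.35 and 0.27 on the 2 arrays. The 30 other genes tested between its ends had 7 higher and 3 lower, with medians of 0.10 and 0.06. In GALNT3 KO the zinc finger genes of the cluster had medians of -0.12 and -0.03, with 1 called higher and 3 lower. Besides ZNF93, ZNF43 and ZNF85, the rises included ZNF253 (1.08), ZNF492 (0.96), ZNF726 (0.88), ZNF730 (0.79) and ZNF431 (0.78), and the fall was ZNF14 (-0.92), all as group means. For ZNF492 the lowest of 3 probes gave -0.94, so its direction belongs to the probe. A run of 5 neighbours, from ZNF493 to ZNF208, lay above 0 on both arrays, with 4 called. Some of these probes share long stretches, as shown above for ZNF85 and ZNF492, so the 16 calls are not 16 separate measurements. The median of the cluster dropped to 0.13, with 12 higher and 1 lower, when arrays were centred on the median in place of loess.

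Cluster 12, from ZNF575 to ZNF296 at chr19:44039329-45575588, went the other way. Of 23 genes tested 17 were called lower and 1 higher on the GALNT3/T6-labelled arrays. Its median was -0.72 and -0.77, beside -0.20 and -0.11 for the 28 other genes between its ends, of which 4 were called higher and 12 lower. In GALNT3 KO the medians were -0.04 and -0.14. ZNF284 and ZNF234 led the falls, followed by ZNF428 (-1.65), ZNF223 (-1.35), ZNF235 (-1.27), ZNF576 (-1.16), ZNF227 (-1.09), ZNF233 (-1.09) and ZNF180 (-1.09) as group means. ZNF229, the exception, lies between ZNF285 (0.05, not called) and the falling ZNF180. Over the alternatives other than the t-test, between 14 and 18 genes of the cluster were called lower and at most 1 higher.

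Cluster 16, the largest with 54 genes, reaches from ZNF628 to ZNF446 near the end of the long arm, at chr19:55995696-58992524. There 30 were called lower and 7 higher, with medians of -0.49 and -0.41. The 56 other genes between them had 12 lower and 6 higher, with medians of 0.01 and -0.09. The rises were ZNF671, ZNF667-AS1, ZNF542P, ZNF544, ZNF471, ZNF418 (0.45) and ZNF497 (0.31). A run of 9 neighbours from ZNF419 to ZNF551 lay below 0 on both arrays with 6 called. ZNF154, near Ctrl, and then ZNF671, the second largest rise, come next. Among the falls, ZNF580 and ZNF581 are adjacent short genes, at -1.35 and -1.90.

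Cluster 9, from ZNF565 to ZNF573 at chr19:36673459-38229314, had 13 of 26 genes called lower and 3 higher, with medians of -0.26 and -0.41 beside 0.01 and -0.02 for the 16 other genes. ZNF146, ZNF573, ZNF567 (-1.64), ZNF790 (-1.39) and ZNF570 (-1.35) led the falls, while ZNF829 rose in their midst. The other probe of ZNF570 had the opposite sign, at 0.42. Cluster 15, from ZNF175 to ZNF331 at chr19:52077356-54081376, was mixed, with 12 of 39 called higher and 12 lower. It held the longest run above 0, of 7 neighbours from ZNF610 to ZNF137P with 6 called, as well as the falls of ZNF649, ZNF160 (-1.82) and ZNF616 (-1.38). ZNF528 in that run passed the filter only through the GALNT3/T6-labelled arrays. The highest of 5 probes of ZNF160 gave 0.27. The median of cluster 15 was 0.09 and 0.01, and changed sign with Agilent's own log ratio to -0.16.

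The other 4 of these clusters were as follows. Cluster 3, from ZNF653 to ZNF791, had 4 of 23 higher and 8 lower, with ZNF439 lowest. Cluster 2, from ZNF557 to ZNF812, had 4 of 14 higher and 2 lower, and ZNF177 and ZNF559 were its largest rises. Cluster 1 had 3 of 4 lower, led by ZNF77 (-0.94 and -1.14), and cluster 8 had 3 of 5 lower, led by ZNF30. Among genes outside these 9 clusters, the largest falls besides ZNF114 were ZNF780A (-0.91 and -0.97), ZNF526 (-0.68 and -0.56) and ZNF333 (-0.49 and -0.71).

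**Figure D4:**
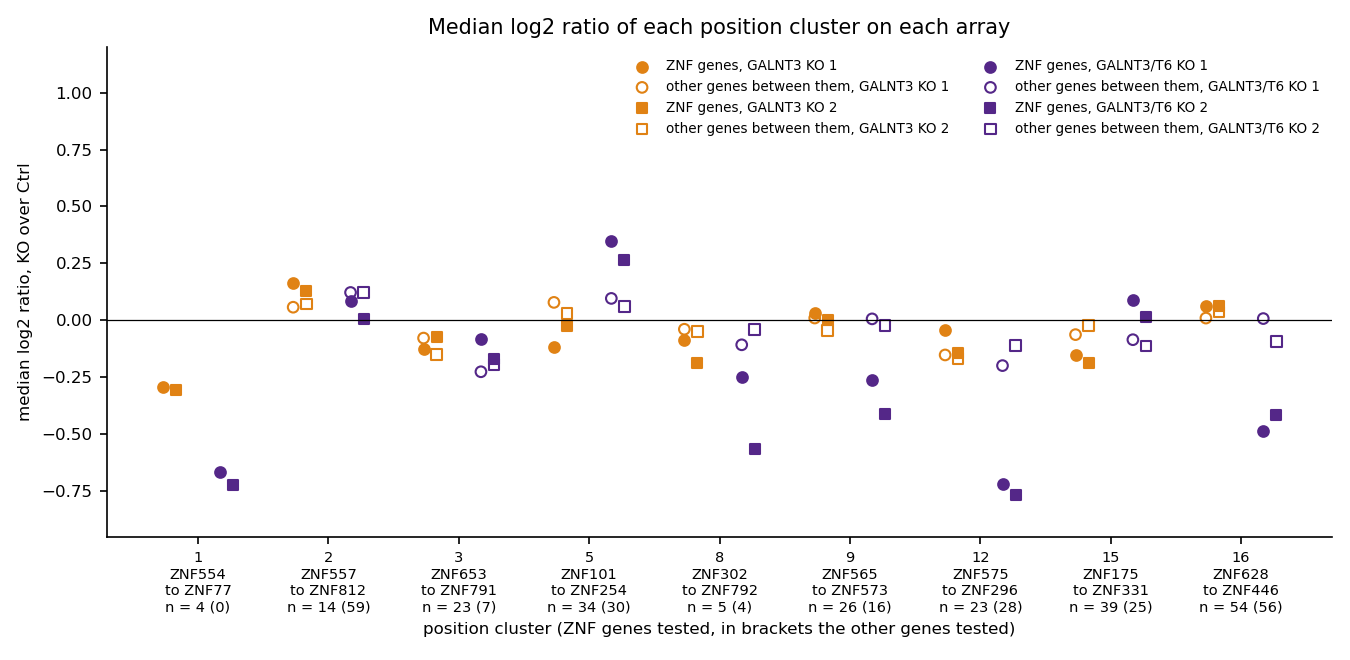
Median log2 ratio of KO over Ctrl of the ZNF genes (filled) and of the other genes tested between the first and last ZNF gene (open) in each position cluster of at least 5 members, on each array (orange, GALNT3 KO; purple, labelled GALNT3/T6 KO; circles and squares, replicates 1 and 2). The purple filled points are highest in cluster 5, at 0.35 and 0.27, and lowest in cluster 12, at -0.72 and -0.77.

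Neighbours along the chromosome often differed. Of 231 pairs of neighbouring tested genes, 139 had the same sign on the GALNT3/T6-labelled arrays, with a median gap of 0.68 between them on the log2 scale, and 22 pairs were more than 2 apart. The longest run below 0 on both arrays was 19 genes, from ZNF781 to ZNF284, with 13 called, and it crossed from cluster 9 into cluster 12. Strand made little difference, with 25 higher and 51 lower of 125 plus-strand genes and 22 higher and 43 lower of 107 minus-strand genes.

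The promoters of the members give a further feature that played no part in choosing them. RefSeq promoter sequence on GRCh38.p14 was at hand for 201 of the 236 genes, and the 250 bases before each start were read. For a gene with several starts, the CpG count is the mean over its windows. These windows held a median of 16 CpG, beside 11 over 27326 genes of RefSeq and 18.4 for ZNF genes on other chromosomes. Genes called higher on the GALNT3/T6-labelled arrays had a median of 13.9 CpG (36 genes), those called lower 16.2 (84 genes) and those not called 15 (77 genes), with wide overlap. Cluster 5 stood apart in this count, with a median of 8 and a range of 3 to 14 over 26 genes, beside 14.5 in cluster 12, 19 in cluster 9 and 18 in cluster 16.

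The letters ACTACANNTCCCA, where N is any base, were found in 21 of 84 promoters of genes called lower on the GALNT3/T6-labelled arrays (25%), in 4 of 36 of those called higher (11.1%) and in 7 of 77 of those not called (9.09%). Of the genes called higher in GALNT3 KO 3 of 12 held them. All such counts are of genes with a match at any of their starts, so a gene with several starts has more chances to match. The letters were taken from the promoter of ZNF573, which is itself among the 21, after the ratios and these promoters had been seen. They resemble the sequence bound by ZNF143, a zinc finger activator of transcription. On either strand they were found in 32 of the 201 member promoters (15.9%), in 20 of 256 promoters of ZNF genes elsewhere (7.81%), in 36 of 1309 of other chromosome 19 genes (2.75%) and in 1.56% of all 27326. They were found in 10 of 20 promoters of cluster 12 and 11 of 24 of cluster 9, but in 0 of 26 of cluster 5 and 0 of 23 of cluster 3. ZNF284, ZNF234 and ZNF573 are shown with these letters in capitals (reversed in ZNF284 and ZNF234), and ZNF93 of cluster 5 with its 8 CpG in capitals. All are written 5′ to 3′ in the direction of the gene. Their positions on GRCh38.p14 are chr19:44071909-44072158 (plus), chr19:44141304-44141553 (plus), chr19:37779587-37779836 (minus) and chr19:19900696-19900945 (plus).
ZNF284: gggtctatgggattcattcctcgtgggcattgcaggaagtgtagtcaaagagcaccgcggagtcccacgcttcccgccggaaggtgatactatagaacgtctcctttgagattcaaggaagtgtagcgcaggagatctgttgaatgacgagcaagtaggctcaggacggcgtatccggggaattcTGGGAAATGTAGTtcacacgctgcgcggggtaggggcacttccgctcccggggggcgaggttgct
ZNF234: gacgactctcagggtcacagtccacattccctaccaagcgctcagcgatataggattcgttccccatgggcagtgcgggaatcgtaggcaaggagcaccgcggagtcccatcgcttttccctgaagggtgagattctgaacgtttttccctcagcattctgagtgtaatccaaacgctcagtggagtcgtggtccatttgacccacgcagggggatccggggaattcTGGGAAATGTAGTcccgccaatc
ZNF573: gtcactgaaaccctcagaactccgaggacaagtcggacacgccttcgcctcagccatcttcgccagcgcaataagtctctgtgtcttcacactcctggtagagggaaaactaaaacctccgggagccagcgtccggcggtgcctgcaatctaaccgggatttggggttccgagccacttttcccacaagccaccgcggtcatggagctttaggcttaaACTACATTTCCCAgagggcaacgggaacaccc
ZNF93: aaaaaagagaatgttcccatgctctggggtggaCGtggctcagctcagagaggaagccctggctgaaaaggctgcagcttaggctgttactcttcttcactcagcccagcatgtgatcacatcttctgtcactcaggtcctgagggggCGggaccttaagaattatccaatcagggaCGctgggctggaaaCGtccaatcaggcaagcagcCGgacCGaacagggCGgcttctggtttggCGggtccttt

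Of the 32 members with these letters, 21 were called lower and 4 higher on the GALNT3/T6-labelled arrays, with a median of -0.62. Of the 165 tested members without them, 63 were called lower and 32 higher, with a median of -0.14. Position goes together with this feature. Within cluster 12 the members with the letters had 9 of 10 lower (median -0.84) and those without 5 of 9 (median -0.39), while within cluster 9 these were 6 of 11 and 7 of 13. ZNF829, the largest rise, also carries them, as do ZNF568, ZNF331 and ZNF667-AS1. For ZNF genes on other chromosomes, 6 of 13 with the letters and 84 of 184 without were called lower. A match describes these letters and no more, and the difference was not tested.

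**Figure D5:**
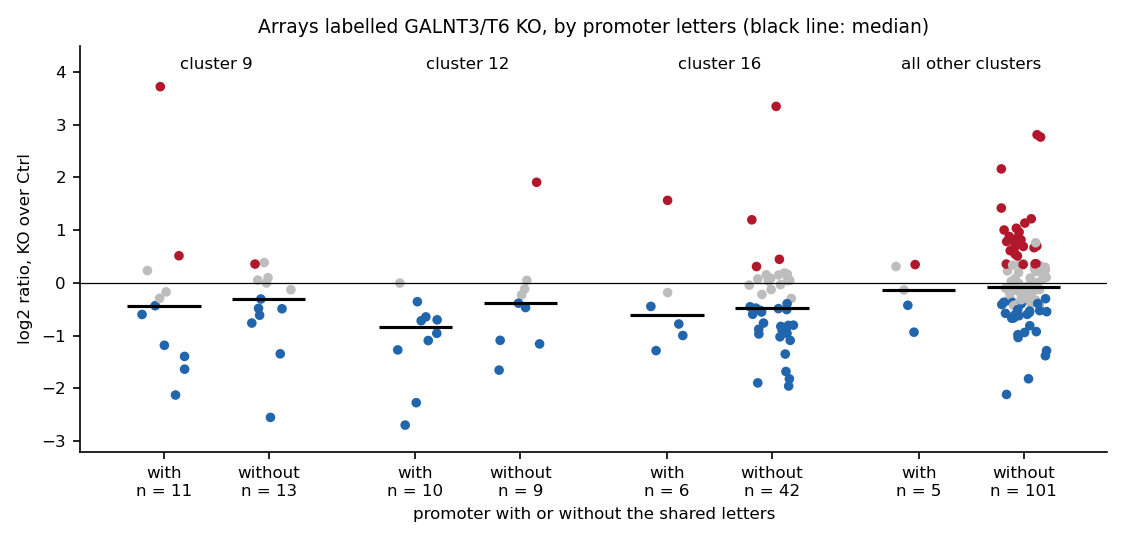
Log2 ratio of KO over Ctrl on the GALNT3/T6-labelled arrays for members with and without the shared promoter letters, in clusters 9, 12 and 16 and in all other clusters (red, called higher; blue, called lower; grey, not called; black line, median). In cluster 12 the median is -0.84 with the letters and -0.39 without.

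The co-repressors that KRAB zinc finger proteins work through were also read, as a list of 37 names of which 36 were tested. On the GALNT3/T6-labelled arrays 16 of them were called lower and 2 higher, with a median of -0.68, beside 23.1% lower, 24.8% higher and a median of 0.03 for all genes. TRIM28, the protein that KRAB boxes bind, stood at -1.82 and -1.44, and SETDB1, which methylates histone H3 lysine 9, at -1.86 and -1.45 (adjusted p = 0.0011 and 0.00178 from limma). CBX5, an HP1 protein, stood at -1.63 and -1.88, and MORC2, a partner of the HUSH silencing complex, at -2.49 and -1.90. The groups differed past the threshold for TRIM28 (-1.25), SETDB1 (-1.11) and CBX5 (-1.51), but not for MORC2 (-1.09, adjusted p = 0.0842 from limma), which stood at -0.73 and -1.48 in GALNT3 KO.

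The clones differed widely in some of these genes. UHRF1, which guides DNA methylation to newly copied DNA, stood at -2.56 and -0.16, and DNMT1, the maintenance DNA methyltransferase, at -1.36 and -0.36, and neither was called. The called rises were CHD3 (1.45 and 1.56), an ATPase of the NuRD complex, and DNMT3A (0.65 and 0.96), a de novo DNA methyltransferase. In GALNT3 KO 4 were called lower, CBX3 (-0.75 and -0.90), MTA2, SUMO2 and CHD3, and 0 were called higher by limma, with a median of -0.33, beside 6.44% lower and a median of 0.02 for all genes. Between the groups 6 were lower and 3 higher on the GALNT3/T6-labelled arrays, beside 11.9% each for all genes.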

How the data were processed

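RNA of 4 KO clones, 2 of each group, was set against Ctrl on 4 Agilent 2-colour arrays of 1 slide. Per the file headers, the authors' deposited scanner files hold intensity values from Feature Extraction 10.7.3.1, while the submitters' processing notes name 8.5.1.1. A deposited table holds the same log10 ratio, rounded. Mean spot intensities were corrected with normexp (offset 50) and loess within arrays (limma 3.58.1, R 4.3.3). Control spots and outlier flags were left out. Probes were kept where a channel was well above background on each array of a group, and the brightest kept probe stood for the gene. All 4 arrays entered 1 limma model, with Benjamini-Hochberg adjustment over 27196 genes. The number of arrays limits the precision. Named genes were the up to 10 largest called rises and falls in each comparison with 1 sign on both arrays, genes dim in 1 group, the largest call of each cluster and a list of known members (ZNF677 is not named on the arrays). Other genes named were chosen after their values were seen. Members and lists were chosen with earlier results of these data known. Alternatives covered background, scaling, filter, probe choice, test, replicate block and leaving out arrays.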

Additional observations from a re-analysis of the deposited data

Results flagged for a closer look

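ZNF841, ZNF667 and ZNF549 were called in opposite directions against Ctrl in the 2 groups, and their difference was called by limma. ZNF841 stood at -0.36 and -0.47 in GALNT3 KO and at 0.73 and 0.65 on the GALNT3/T6-labelled arrays, a difference of 1.11. ZNF667 stood at 0.56 and 0.51 and at -0.88 and -0.73, a difference of -1.34, while its antisense RNA ZNF667-AS1 was above Ctrl on all 4 arrays. ZNF549 stood at 0.69 and 0.63 and at -0.51 and -0.47, a difference of -1.15. All 3 genes lost the call of the difference without GALNT3 KO replicate 1 or 2, and lost their call in GALNT3 KO under several alternatives.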

How the results depend on the processing

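The 29 genes called in GALNT3 KO became 3 with Agilent's own log ratio or the deposited table, 94 with only the arrays compared, 1 with a replicate block and 19 at an unadjusted p of at most 0.05 with a 1.5-fold change. They became 10 by the plain t-test and 0 after its adjustment (40 at an unadjusted p under 0.05). The 141 on the GALNT3/T6-labelled arrays became 36 by the plain t-test and 0 after adjustment, and the 87 of the comparison between the groups became 1. Leaving out 1 array gave 0 to 94, 104 to 138 and 9 to 106 genes. The replicate block gave 1, 117 and 59 genes, and the numbers do not pair the clones by the labels (correlation of deviations -0.24). The crossed pairing, chosen after seeing the data, gave 28, 144 and 94. Shares over all genes are not given for the alternatives. Their counts are therefore no result about the family.

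The 14 higher and 15 lower in GALNT3 KO became 4 and 21 with median centring, 10 and 19 with the mean of all probes, 9 and 19 with the crossed pairing and 0 and 3 with Agilent's own log ratio. In the comparison between the groups 32 and 55 became 26 and 78 with Agilent's own log ratio.

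The member median in GALNT3 KO was 0.034 with Agilent's ratio or the deposited table, -0.093 with median centring and -0.042 with the mean of all probes. On the GALNT3/T6-labelled arrays it was -0.25, with both of the former, and -0.30 with centring, and -0.20 to -0.12 without 1 array. Cluster medians there, with Agilent's ratio or the deposited table, were -0.50 (cluster 1), -0.043 (3), -0.17 (8), -0.43 (9), -0.76 (12), -0.16 (15) and -0.54 (16). With median centring they were -0.84 (cluster 1), -0.13 (2), -0.24 (3), 0.13 (5), -0.80 (12) and -0.055 (15). Without the filter on dim probes cluster 1 was at -0.58, and with the filter on all 4 arrays clusters 2 and 15 were at -0.15 and 0.027. With the mean of all probes clusters 9, 12 and 16 were at -0.47, -0.77 and -0.39, and with a gap of 500 kb cluster 2 was at 0.16. Without 1 array they were -0.070 to 0.085 (cluster 2), -0.41 to -0.26 (9), -0.77 to -0.72 (12), 0.015 to 0.090 (15) and -0.49 to -0.41 (16). ZNF154 (-0.27) and ZNF471 (-0.047) changed sign with the mean of all probes. The causes were not tested. Of the named genes called, 38 of 43 on the GALNT3/T6-labelled arrays, 0 of 21 in GALNT3 KO and 9 of 41 in the comparison between the groups stayed called under every alternative other than the plain t-test.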
